A study of Danio rerio with 12 samples.

Results

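Retinoic acid (RA) is made from vitamin A and acts through nuclear receptors, the RARs, which bind DNA with RXR partners and switch between repressing and activating nearby genes as the ligand comes and goes. In the early vertebrate embryo RA patterns tissues from head to tail, acts on the hox genes and is required in the endoderm, the layer that lines the gut, for the pancreas to be specified. BMS493 is an inverse agonist of the RARs, so that it blocks the response to the RA that the embryo makes itself. A stretch of chromatin that is open in untreated endoderm and with added RA, but not with BMS493, is a candidate for a site that depends on the embryo's own RA. The regions described here were taken by that pattern of peak calls.

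Open chromatin was mapped by ATAC-seq, in which a transposase cuts accessible DNA, in cells sorted from Tg(sox17:GFP) zebrafish embryos at the 3-somites stage. The 12 samples were 4 groups of 3. Endodermal GFP-positive cells came from embryos treated from the 2-cell stage with RA, with BMS493 or with the solvent DMSO, and the fourth group (NE) was the GFP-negative, non-endodermal cells of DMSO-treated embryos. All groups carried the transgene, and the identity of the sorted cells rests on that reporter, since the peak lists hold no expression values. Nothing in the labels says that the 3 samples of a group came from separate clutches, so the spread between them may be technical. The libraries held 18928561 to 32052207 tags, of which 11056595 to 22930744 remained after duplicates were dropped, and the lists held 51301 to 143755 peaks. The shortest list was that of DMSO replicate 1.

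Peaks of the 12 lists that shared at least 1 bp were merged into 245646 regions on the Zv9 genome. The regions taken were those called in all 3 RA lists, in at least 2 of the 3 DMSO lists and in 0 of the 3 BMS493 lists. There were 775 of them, or 0.315% of all regions, and they are called the BMS493-lost regions below. The name stands for this pattern of calls alone and not for a measured loss of accessibility. The calls in RA, DMSO and BMS493 chose them, so their heights in those 9 samples are a description, while their calls in NE, their position and their overlap with RAR binding sites were not used. Of the 775 regions, 754 lay on chromosomes 1 to 25 and 21 on unplaced scaffolds.

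The count by itself did not set RA apart from BMS493. With the roles of RA and BMS493 exchanged, so that a region had to be called in all 3 BMS493 lists, in at least 2 DMSO lists and in no RA list, 1042 regions were found, more than the 775. The number of these regions is thus no measure of a need for endogenous RA, and they are described by their calls. One step outside the rule, 2626 regions were called in the same RA and DMSO lists and in 1 BMS493 list, and 7117 in 2 BMS493 lists. A further 1087 were called in all RA lists, in 1 DMSO list and in no BMS493 list. The regions called in RA and DMSO lists and in at least 1 BMS493 list numbered 50032 and serve as the comparison below (BMS493-kept regions). Which regions were taken moved with the lists: with every list shortened to the same length 391 regions met the rule, of which 34 overlapped the 775, and with peaks asked to cover 50% of a region 623 met it, of which 114 were shared. Leaving out BMS493 replicate 2, BMS493 replicate 3 or RA replicate 3 raised the number to 2739, 1180 and 1219. A rise follows from the rule, which then asks for fewer lists, and only its size is a result.

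The BMS493-lost regions stood near the middle of the RA lists and below the middle of the DMSO lists. Heights are given as the pileup at the summit per 10000000 filtered tags. The pileup is the number of overlapping tags, each shifted and extended to 80 bp. The percentile rank of that pileup in the sample's own list is given too. There 100 is the tallest peak and 0 stands for no call. The median height was 9.71, 7.18 and 8.01 in RA replicates 1 to 3, and 6.69, 6.40 and 6.08 in the DMSO replicates that called the region. The median of the mean rank was 48.1 in RA and 21.4 in DMSO, against 68.7 and 61.5 over the BMS493-kept regions. The regions were also narrower, with a median of 300.0 bp against 404 bp. A merged region can widen with each list that calls it, and the rule bars the 3 BMS493 lists. With the same RA and DMSO calls the median was 315 bp with 1 BMS493 call, 340 bp with 2 and 424 bp with 3. Over all regions it was 193 bp.

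The call in DMSO rested on 2 libraries for most of them. DMSO replicate 1 called 140 of the 775 regions, while replicates 2 and 3 called 748 and 756. As few as 94 regions were called in all 3 DMSO lists, and for these the median of the mean rank was 51.8 in RA and 36.1 in DMSO. List length moved with this pattern, since replicate 1 had the fewest peaks of the 12 lists (51301). It also had the fewest filtered tags of the DMSO samples (11951035). NE replicate 3 had fewer still, 11056595, and a list of 103930 peaks. The part of depth and list length in the result was not tested. Without DMSO replicate 2 the rule found 122 regions and without replicate 3 it found 113. Every DMSO list left then had to call a region, so a fall follows from the rule.

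**Figure D1:**
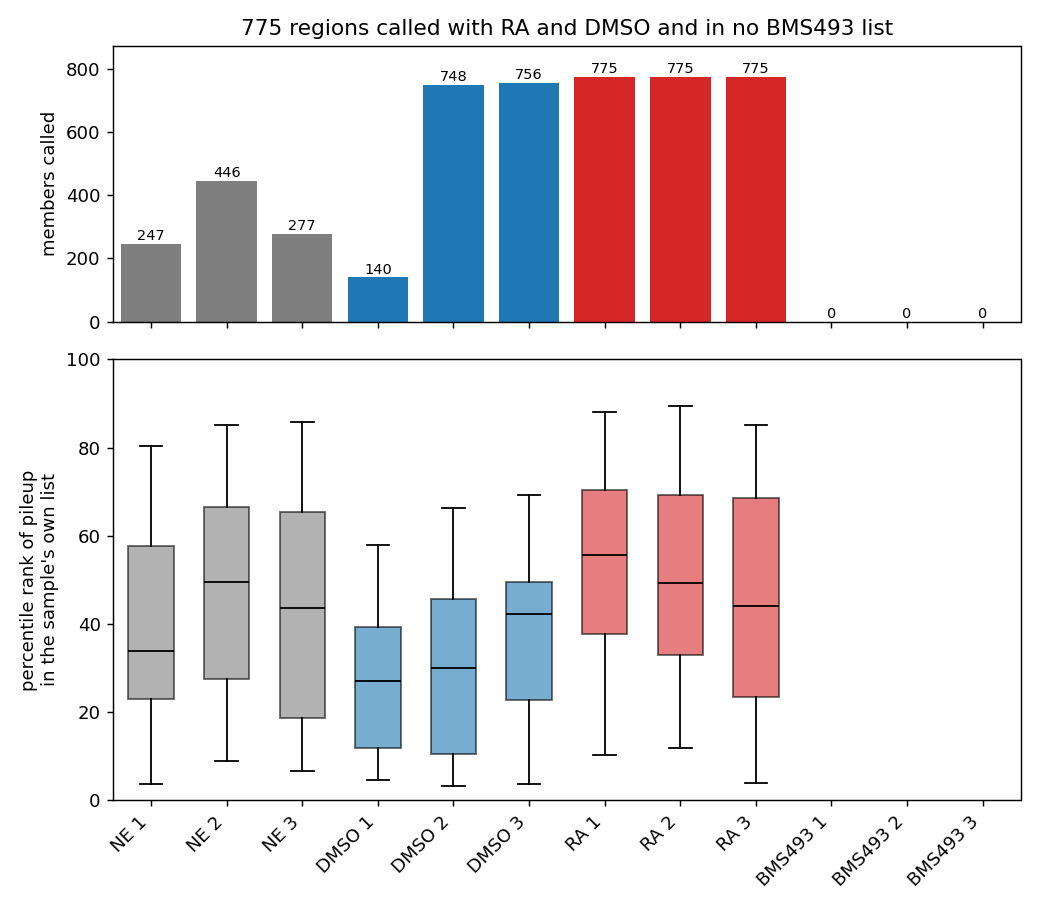
Calls and heights of the 775 BMS493-lost regions in each of the 12 samples. The upper bars give the number of regions called, and the lower boxes the percentile rank of the pileup among the called ones (line, median; box, quartiles; whiskers, 5th to 95th percentile); RA, DMSO and BMS493 calls are set by the rule, DMSO replicate 1 called 140 regions and the NE samples 247, 446 and 277.

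How far the regions stood above what a BMS493 list could have held was read from the weakest peaks of those lists. Among BMS493 peaks with −log10(q) of at most 2, the 95th percentile of height was at most 7.01. All 3 RA values of 359 regions (46.3%) were above that level, and 81 regions (10.5%) were above it in all 3 RA samples and in every DMSO sample that called them. A BMS493 peak lay within 1000 bp of 165 regions (21.3%), and the median distance to the nearest was 2955 bp. That level came from BMS493 replicate 2, and the percentile was lower in replicates 1 and 3, at 5.19 and 6.16. A region without a BMS493 peak is thus one that was not called. In most of these regions at least 1 RA or called DMSO height was no higher than the level of 7.01. Whether a weaker peak was present with BMS493 cannot be read from the lists.

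The tallest BMS493-lost regions held peaks well inside the lists. The first by mean rank over RA and DMSO samples was chr3:13677737-13678935, which the study's peak annotation calls an intron and assigns to si:ch73-346m18.6. It reached 27.6, 21.5 and 19.2 in RA, 13.4, 13.5 and 13.4 in DMSO and 14, 10 and 16.3 in NE, and it had no BMS493 peak. The 3 DMSO samples were nearly equal and below all RA samples. It was also the one region of the whole series that limma called higher in DMSO than in BMS493 (adjusted p = 0.0227, Benjamini-Hochberg over 127026 regions), which is 0.129% of the 775 against 0.000787% of all regions tested. The rule used that contrast, and nothing is read from the count. Without any 1 of the NE or RA samples, without DMSO replicate 2 or 3, or with ranks of −log10(q), limma called 0 BMS493-lost regions, while 39 to 121 had an unadjusted p under 0.05. Of all regions tested, 498 to 1330 reached that p in the same direction.

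An intronic region assigned to meis4.1a had the highest mean RA rank of the 775 (chr1:52013052-52013436). That gene is a homeodomain gene of the Meis family, whose products act as cofactors of Hox proteins. The region stood at 32.1, 30.7 and 25.6 in RA and at 15.6 and 13.4 in DMSO replicates 2 and 3, with no call in DMSO replicate 1. The 3 NE samples held 10.7, 14.8 and 19.9. RA was higher than every other sample, and the DMSO values that were called fell inside the NE range. The region upstream of the microRNA gene dre-mir-222a (chr9:34914578-34914914) was at 30.6, 18.3 and 17.6 in RA and 10.9, 12.8 and 10.3 in DMSO, but was called in 1 NE sample, at 7.41. The remaining 2 of the 5 tallest, on chromosomes 11 and 20, have no gene in the annotation used here and were called in all 3 NE lists.

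The BMS493-lost regions differed widely in the non-endodermal cells, which the rule left free. Of the 775 regions, 276 (35.6%) were called in no NE list, 182 in 1, 163 in 2 and 154 (19.9%) in all 3. Over all 245646 regions the shares were close to these, at 31.9% in no NE list and 24.8% in all 3. Among the BMS493-kept regions 5.94% were called in no NE list and 76.4% in all 3. Those with fewer BMS493 calls stood nearer to the BMS493-lost regions. The 2 shares were 19.8% and 35.0% for the 2626 regions with 1 BMS493 call, and 9.86% and 55.4% for the 7117 with 2. The difference was present at each height: of the regions with a mean RA rank over 75, 68% of the 97 BMS493-lost regions and 96.5% of 20259 BMS493-kept regions had at least 1 NE call, and at ranks of 25 to 50 the shares were 64.8% of 310 and 91.4% of 10707. The exchanged set had a share close to that of the BMS493-lost regions, with no NE call in 31.1% of 1042. Regions called in all RA lists and in no DMSO or BMS493 list had no NE call in 67.1% of 1126. These counts moved with the libraries used: with 1 sample left out at a time, 30 to 865 regions were called in every NE list kept and 35 to 620 in none, lowest without DMSO replicate 2 or 3 and highest without BMS493 replicate 2. Those directions follow from the rule, which is stricter without a DMSO list and looser without a BMS493 list. No test was made between the sets, which differ in height by the way they were chosen.

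**Figure D2:**
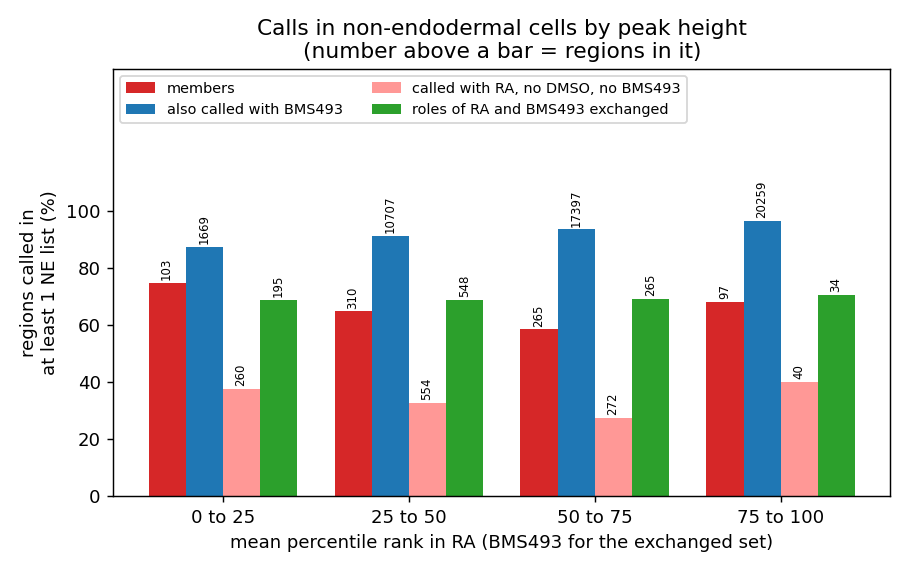
Share of regions called in at least 1 of the 3 NE lists (y axis, %) by mean percentile rank (x axis), for 4 sets of regions; the number above each bar is the number of regions in it. The BMS493-lost regions lie between 58.5% and 74.8% in the 4 height classes, and the BMS493-kept regions between 87.5% and 96.5%.

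The tallest regions called in no NE list were one on chromosome 25 without an assigned gene (chr25:24706349-24706878), one near hoxb6a and one assigned to MDFI. The hoxb6a region (chr3:23996325-23996627), 1380 bp from the start of that hox gene, was at 22.4, 13.7 and 13.6 in RA and at 13.5 and 13.4 in DMSO replicates 2 and 3, without a call in DMSO replicate 1 or in NE. The 2 called DMSO values and the 2 lower RA values were nearly equal. The MDFI region (chr11:22852552-22852910), which the annotation calls an intron, lies 91345 bp upstream of the MDFI start. It was called in all 6 RA and DMSO samples, at 16.4, 15.7 and 18.4 in RA and at 7.53, 8.54 and 9.12 in DMSO. In the mean rank it was 53.5 in DMSO and 0 in NE.

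The 3 regions highest in NE were one on chromosome 18 without an assigned gene (chr18:23614461-23614867), one assigned to hoxb1a and one assigned to usp25. The hoxb1a region (chr3:24076908-24077339), called an intron by the annotation, stood at 19.4, 19.2 and 24.4 in NE, at 5.02, 7.11 and 8.51 in DMSO and at 17.2, 9.14 and 11.2 in RA. Every NE sample was above every endodermal sample. hoxb1a is an anterior hox gene of the hindbrain and a classical RA target. A second region of the same locus, less than 3 kb away (chr3:24074144-24074446), had RA above NE instead, with 18.7, 17.6 and 13.6 in RA, 7.82 and 5.47 in DMSO and a call in NE replicate 2 alone, at 10.

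Height in endoderm and NE was compared with limma on the percentile ranks, over 127026 regions called in at least 3 samples. The BMS493-lost regions called higher in DMSO than in NE were 2 of 775 (0.258%, against 2.16% of all regions tested), and those lower in DMSO were 15 (1.94%, against 4.91%). The 2 higher regions were the MDFI region, by 53.5 ± 14.8 rank units (SE, adjusted p = 0.0341), and a region assigned to cx41.8, by 48.2 ± 14.2 (adjusted p = 0.0486). The annotation calls the latter an intron, 34708 bp from the start of cx41.8, a gap junction gene known from pigment stripes. The cx41.8 region (chr1:47893548-47893852) had 8.37, 7.82 and 6.69 in DMSO, 25.4, 17.6 and 14.4 in RA and no NE peak. The 15 lower regions included the hoxb1a region, by −59.1 ± 15.8 (adjusted p = 0.0278), the chromosome 18 region, by −79.6 ± 14.8 (adjusted p = 0.003), and regions assigned to wnt11r, a secreted Wnt ligand, and flrt3, a membrane protein. The wnt11r region (chr10:33090285-33091048) stood at 16, 12.2 and 19.0 in NE and at 4.98 and 6.69 in DMSO. In most of the 15 lower regions, this one included, DMSO replicate 1 made no call and counted as rank 0. In 53 regions (6.84%) every NE sample ranked above every DMSO sample, against 13.1% of all regions tested. The rule asks for DMSO calls and asks nothing of NE, which favours DMSO. It also sets the BMS493 ranks of these regions to 0, and the same fit uses them. The SE and adjusted p given here therefore rest in part on the rule. With DMSO replicate 1 left out 40 regions were higher in DMSO and 9 lower, against 5334 and 4442 of all 127026. With NE replicate 1, NE replicate 3 or BMS493 replicate 3 left out 0 were higher, against 2065, 2320 and 2409 of all. With no filter, or with the replicate number as a block, limma also called 0 higher, against 2129 of 245646 and 2618 of 127026 regions. At an unadjusted p under 0.05 there were 44 and 48, against 7377 and 7467 of all these regions.

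RA stood above DMSO in most BMS493-lost regions, which the rule also favours, because it asks for 3 RA calls and for 2 DMSO calls. The mean rank was higher in RA in 710 of 775 (91.6%), against 66% of the BMS493-kept regions. Every RA sample ranked above every DMSO sample in 288 (37.2%), against 5.27% of all regions tested. With limma 6 regions (0.774%) were higher in RA, against 0.194% of all regions, and an unadjusted p under 0.05 was reached by 299 (38.6%, against 4.44%). These 6 were called in 2 DMSO lists each, and in every one the missing call was that of DMSO replicate 1, the shortest list. The fit scores that missing call as rank 0. The lowest adjusted p of the 6, 0.0385, was at a region assigned to 5S_rRNA (chr11:17318321-17318664). Another was called an exon and assigned to kalrna, a guanine nucleotide exchange factor. At the kalrna region RA reached 20.9, 25.5 and 27.2 against 7.82 and 4.26 in DMSO. The mean rank of that region was 75.4 ± 15.2 units higher in RA (SE, adjusted p = 0.049). This fit too used the BMS493 ranks that the rule sets to 0, so its SE and adjusted p rest in part on the rule. In the limma fits on ranks of −log10(q), with no filter, or without any 1 of the NE, DMSO or BMS493 samples, 0 of the 775 passed the adjusted threshold, while 178 to 370 passed at an unadjusted p under 0.05. Of all regions tested, 0 to 32 passed the adjusted threshold and 3143 to 7729 passed at the unadjusted p. Without RA replicate 1 the number of the 775 passing the adjusted threshold was 13 (600 of all regions). Without RA replicate 2 it was 3 (258 of all regions).

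The 94 regions called in all 6 RA and DMSO lists leave no missing calls, but they were still chosen by these calls and by the absence of a BMS493 call, which the regions set beside them were not, so the values are a description. By rank, 0 of them were called higher in RA by limma after adjustment, and 27 (28.7%) at an unadjusted p under 0.05, against 1.75% of the 35816 regions called in all 6 lists. On log2 height, 4 of the 94 (4.26%) were higher in RA, against 0.14% of those regions, with a median difference of 0.41 over the 94 and 0.15 over all 35816. The 4 included an intronic region assigned to tshz1, a zinc finger gene (chr19:21870370-21870745), by 1.42 ± 0.35 (SE, adjusted p = 0.0471). Another was assigned to zgc:112294, by 1.61 ± 0.35 (adjusted p = 0.0147). Added RA and BMS493 compared directly called 148 of the 775 (19.1%, against 0.625% of all regions), in the contrast by which the regions were chosen. That number ran from 3 without any 1 of the BMS493 samples to 248 without DMSO replicate 1. Over all regions the counts were 5, 13 and 6 without BMS493 replicates 1 to 3, and 1325 without DMSO replicate 1.

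RAR binding was an independent property of the regions. The study mapped binding of a Myc-tagged RARaa by ChIP-seq in whole embryos. The receptor came from injected mRNA and RA was added to the medium before the embryos were fixed, so that those sites come from RA-treated embryos and from all their cells. The positions were used on the 11 chromosomes (1 and 10 to 19) held in full in the text available here, of a table held in part. There, 22 of 333 BMS493-lost regions overlapped a RAR site by at least 1 bp (6.61%, exact 95% binomial interval 4.19 to 9.83%). The share was 3.24% of 20386 BMS493-kept regions (interval 3.00 to 3.49%), 1.12% of 446 exchanged regions (0.365 to 2.60%) and 1.30% of 98657 regions in all. Taller regions had more of these sites in both sets: 8 of 41 BMS493-lost regions with a mean RA rank above 75 (19.5%) and 5.43% of 8193 BMS493-kept ones, against 4.79% of 292 and 1.77% of 12193 at lower ranks. Regions called with RA but in no DMSO or BMS493 list had a share of 6.11% of 475. The intervals cover counting error only, and regions of one sample are not replicates, so no p is given.

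The RAR sites followed the NE calls within the BMS493-lost regions. Of the 112 called in no NE list on these chromosomes 0 overlapped a RAR site (interval up to 3.24%), against 13 of 151 in 1 or 2 NE lists (8.61%) and 9 of 70 in all 3 (12.9%, interval 6.05 to 23%). The BMS493-kept regions showed the same order, from 1.05% of 1242 through 2.20% of 3632 to 3.66% of 15512. The order was not complete over the genome, since the region assigned to pdzrn3a on chromosome 23 (chr23:10946460-10946843) holds a RAR site of the study's further tables and was called in no NE list. Over all tables of RAR sites used, 29 BMS493-lost regions held a site. On the 11 chromosomes, regions called with RA but in no DMSO or BMS493 list did hold sites without an NE call. They were 12 of 313 (3.83%, interval 2.00 to 6.60%).

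**Figure D3:**
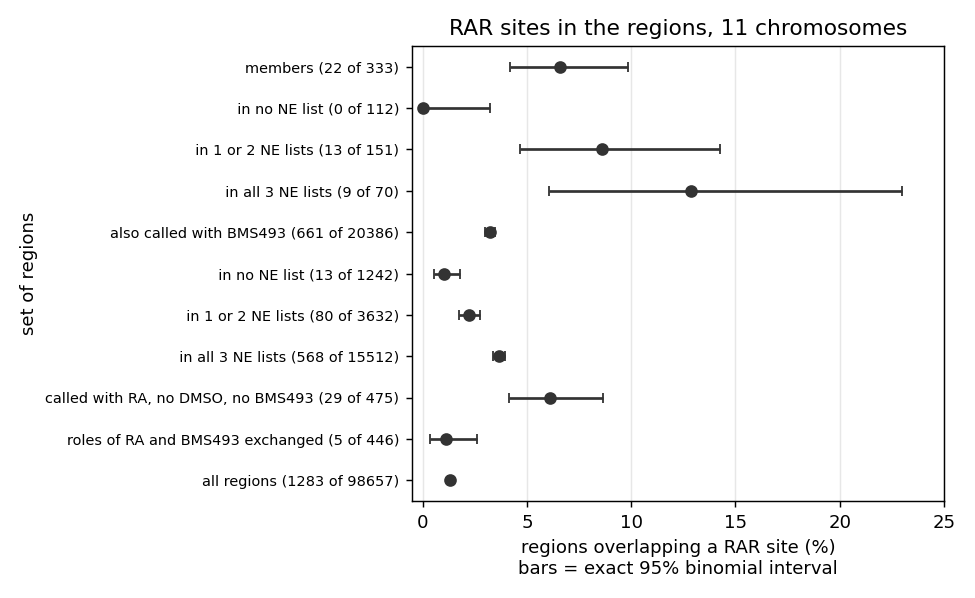
Share of regions that overlap a RARaa binding site (x axis, %) on 11 chromosomes, for the sets named on the y axis with their counts; bars are exact 95% binomial intervals. The BMS493-lost regions lie at 6.61% and the exchanged set at 1.12%, and within the BMS493-lost regions the share runs from 0 of 112 in no NE list to 9 of 70 in all 3.

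Among the regions with a RAR site were some near genes of the RA pathway itself. One was assigned to dhrs3a, a reductase that returns retinal to retinol and so lowers RA. This region (chr23:21962216-21962583), called promoter by the annotation, lay 4533 bp downstream of the gene start. It was at 27.6, 18.3 and 15.2 in RA and at 10.7 and 8.51 in DMSO replicates 2 and 3. It was called in NE replicate 2 alone, at 6.11. A second region inside the same gene (chr23:21957603-21958163), without a RAR site, was called in all 3 DMSO samples, at 6.69, 7.82 and 7.90, and reached 19.4, 10.4 and 13.6 in RA. In both regions every RA sample was above every DMSO sample.

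At skap1, which lies beside the hoxb cluster of chromosome 12, an intronic region with a RAR site (chr12:28740350-28740716) was at 25.4, 22.8 and 12.8 in RA, 5.69 and 7.30 in DMSO and 7.41 and 7.24 in NE replicates 2 and 3. A second one (chr12:28768483-28768785), assigned to psme3 and inside the skap1 gene body, also held a RAR site and had 20.2, 12.4 and 12.0 in RA. DMSO was low in both, with the highest value at 7.30. The irf2bp2a region (chr13:50452401-50452900), 29481 bp upstream of that transcriptional corepressor gene, had 22.4, 21.5 and 31.2 in RA, 5.69 and 7.90 in DMSO and 6.02, 8.29 and 9.04 in NE. The tshz1 region with a RAR site was called in all DMSO samples, at 5.86, 11.4 and 6.69, and in RA at 22.4, 17.6 and 21.6, with no overlap between the groups. The zgc:158309 region (chr3:48524511-48524956) had 20.9, 17.0 and 24.0 in RA and 6.69, 12.1 and 12.2 in DMSO. RAR-bound regions on chromosomes 15, 16, 17 and 18 have no assigned gene in the tables used. At the usp25 region (chr10:39615698-39616102), which also lies 6725 bp from nrip1b, a receptor corepressor gene, NE was highest, at 17.4, 17.4 and 26.2.

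**Figure D4:**
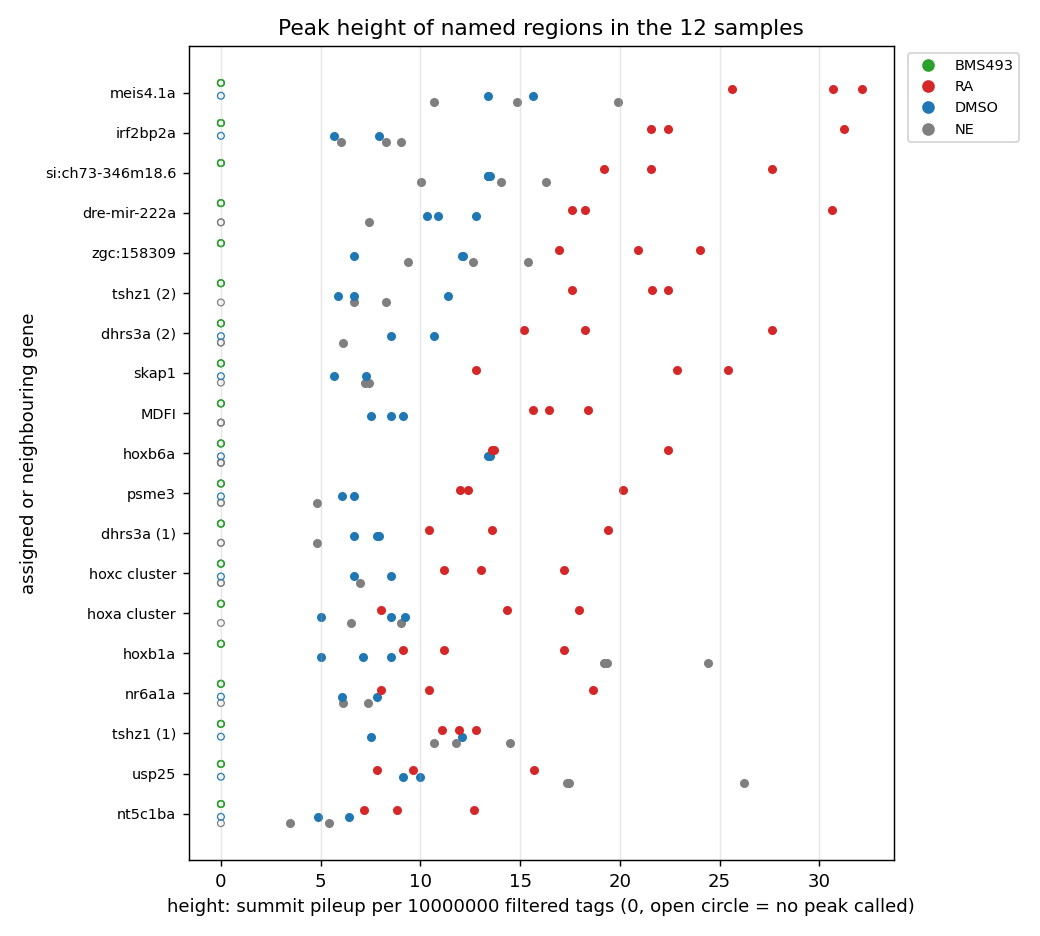
Height, the summit pileup per 10000000 filtered tags (x axis), of 19 named BMS493-lost regions in the 12 samples, one point per sample, labelled by the assigned or neighbouring gene; open circles at 0 are samples without a called peak. BMS493 is at 0 throughout by the rule, RA is above both called DMSO values at meis4.1a, irf2bp2a and dhrs3a, and NE is highest at hoxb1a and usp25.

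Of the 4 gene lists, which differ in size, the hox list with its cofactors and skap1 had the highest number of BMS493-lost regions. Its 10 regions lay within 50 kb of a listed hox gene or of skap1, or were assigned to one within 250 kb, and touched 14 of the 19 genes with a known position (1.29% of 775, against 0.326% of the 50032 BMS493-kept regions and 0.096% of 1042 exchanged regions). Besides the hoxb1a, hoxb6a and skap1 regions they comprised a region inside the hoxa3a gene body (chr19:19234192-19234510), with 17.9, 14.4 and 8.01 in RA and 5.02, 9.25 and 8.51 in DMSO, where RA replicate 3 fell inside the DMSO range. A region with a RAR site was assigned to hoxa1a, 35987 bp from its start, and stood at 14.2, 7.83 and 13.6 in RA. The annotation calls it an exon. A further 3 lay in a stretch of 65.2 kb at hoxc4a and hoxc1a on chromosome 23, of which 2 held RAR sites. One of these 3 was called in all 3 DMSO lists, at 7.53, 9.25 and 9.12 with RA at 9.71, 5.22 and 10.4, so that DMSO and RA overlapped. Because hox genes lie in clusters, 1 region can count for several of the 14 genes. The region inside hoxa3a also counts for hoxa1a, hoxa5a and hoxa11a.

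The other lists held fewer of the regions and fewer genes with a known position (13, 10 and 8 against 19). For RA synthesis, breakdown and receptors 5 regions lay at 3 of 13 genes with a position (dhrs3a, nrip1b and rdh14a), 0.645% of the 775 against 0.282% of the BMS493-kept regions. For nuclear receptors and other RA-responsive factors there were 7 regions (0.903% against 0.176%), among them nr6a1a (chr8:55437988-55438264, 18.7, 10.4 and 8.01 in RA, 7.82 and 6.08 in DMSO), a region near TSHZ3 in no NE list and 2 near nr2f5. Of the 27 endoderm and pancreas regulators listed, only 8 had a position and could be assessed. Among them 3 regions were found, near hnf1ba, mnx1 and gata6 (0.387% against 0.146%, and 0.288% of the exchanged set). The hnf1ba region (chr15:15006054-15006440), beside a regulator of hindbrain and foregut, had 18.7, 9.14 and 7.21 in RA, 5.69 and 7.90 in DMSO and 6.02, 8.72 and 9.95 in NE, all overlapping. Gene positions came from the study's tables of RA-responsive genes and peaks, which were chosen on these samples or their relatives, so the lists are not independent evidence.

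The study's annotation covers a selection of peaks, those the study called more accessible with RA than with BMS493. The rule used that contrast too, so the shares here are a description. That annotation gave a gene for 176 of the 453 BMS493-lost regions on chromosomes 1 to 14. Of these, 57 (32.4%) were called promoter, 54 (30.7%) distal intergenic and 52 (29.5%) intron, nearly the same as over all peaks annotated in that selection (31.5%, 32.8% and 29.1%). The promoter class of that annotation was wide, and included a region 7839 bp from the start assigned to it. A start site lay within 1 kb in 11 of the 176 and within 10 kb in 57, at a median of 21014.5 bp. The gene assigned most often was 5S_rRNA, to 21 of the 176 (11.9%, against 10.6% of all peaks annotated in that selection). The region over the start of mxtx1, a homeobox gene of the yolk syncytial layer, stood at 14.9, 9.79 and 11.2 in RA and 9.96 and 6.08 in DMSO. The start of fabp1b.1, a fatty acid binding protein gene, had 8.97, 11.7 and 8.01 in RA and 5.69 and 4.86 in DMSO, with no NE call. The regions 8103 and 9051 bp upstream of sox9a, a skeletal and cranial regulator, were at 14.2, 10.4 and 18.4 and at 10.5, 9.14 and 18.4 in RA, with DMSO between 4.86 and 6.40 where called. Genes named in this paragraph were chosen after their values were seen.

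The regions were scattered over all 25 chromosomes, and 96 of the 754 placed on them (12.7%) lay within 50 kb of another in 44 groups. The largest group held 4 regions in 87.3 kb on chromosome 6 (chr6:16846088-16933415), and 6 groups held 3, of which one was its neighbour, in 8.07 kb (chr6:16780561-16788634). These neighbours contained 1 and 0 BMS493-kept regions, and 1 of the 4 and 0 of the 3 were called in NE. No gene is assigned to them here. Their mean RA ranks ran from 28.8 to 61.7 and from 35.1 to 64.1. Another group of 3 lay downstream of the start of wnt11r (chr10:33090285-33129460), with mean RA ranks of 33.7 to 77.7, and the one of them nearest to the start was the NE-high region described above.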

How the data were processed

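The 12 samples were 4 groups of 3, taken from the labels. Each sample had 1 peak list. Per the file headers, peaks were called in each sample by itself with MACS2 2.1.1.20160309, without a control, with a shift of 40 bp, an extension of 80 bp, a q-value of 0.05 and 1 duplicate per position, on reads aligned to Zv9 with Bowtie2. A region not called therefore may hold reads below the threshold. The deposited lists give the pileup signal at the summit, the −log10 p-value and q-value, and the fold enrichment over the local background, of which the pileup, the −log10(q) and the positions were used. No read counts were used, so that a count test was not run. The headers of the 3 NE lists number the replicates otherwise than the labels, which were followed.

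Peaks were merged where they shared 1 bp (Python 3.11.15, pandas 2.3.3, numpy 2.4.6; checked with bedtools 2.31.1, which gave the same 245646 regions). Height was the summit pileup per 10000000 filtered tags. Percentile ranks of the pileup within each list (100 for the tallest peak, 0 for no call) were compared with limma 3.58.1 in R 4.3.3, with trend and robust, for all 12 samples in 1 fit over 127026 regions (those with calls in 3 or more samples), with Benjamini-Hochberg adjustment at 0.05. The script was tested on simulated data. Exact binomial intervals came from scipy 1.17.1, also for a count of 0. Intervals cover counting error only. No chance test was run over the regions, which are not replicates.

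Positions of RAR sites, gene names, gene positions and distances to gene starts came from the study's tables, some of them held in part. No column of the study's own comparisons was used. The peak annotation, however, covers only peaks that the study called more accessible with RA than with BMS493. The deposited lists give no gene. No genome of Zv9 was used here, and no sequence is shown.

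The members and the gene lists were chosen with earlier results of these data known. Named regions were the 5 with the highest mean rank over RA and DMSO, up to 5 called by limma for DMSO against BMS493, the 3 highest in NE, the 3 highest without an NE call, up to 10 with a RAR site and up to 10 nearest to genes of 4 lists (assigned within 250 kb, or within 50 kb of the gene). The regions named for the other limma counts, the gene groups and the chromosome 6 and wnt11r groups were chosen after their values were seen. The settings varied were a stricter −log10(q) limit of 3, lists cut to 1 common length (51301 peaks), merging within 100 bp, 50% cover, chromosomes 1 to 25, ranks of −log10(q), no filter, the replicate number as a block, log2 height, other RAR site definitions and leaving out each sample. The stricter limit for RA and DMSO alone, DMSO replicates 2 and 3 both asked for, and the exchanged roles of RA and BMS493 were added after seeing the data.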

Additional observations from a re-analysis of the deposited data

How the results depend on the processing

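Both the set of regions and the limma counts depended on the lists used. In place of 775 regions, 391 were found with lists cut to 1 common length and 467 with a −log10(q) of at least 3 asked of RA and DMSO alone (a setting chosen after seeing the data), and 113 to 2739 with 1 sample left out. Under a −log10(q) of at least 3 in all lists, merging within 100 bp, 50% cover and chromosomes 1 to 25, the numbers were 722, 753, 623 and 754, and the exchanged rule gave more regions than the main rule in each (889, 1038, 663 and 1011), also with the cut lists (981) and with the stricter threshold for RA and DMSO (669). Regions called in all 3 NE lists numbered 78 with the cut lists, 87 with 50% cover, 95 with the stricter threshold for RA and DMSO, and 30 to 865 with 1 sample left out. Those in no NE list were 173 with that threshold and 35 to 620 with 1 sample left out. The rule is stricter without a DMSO list and looser without an RA or BMS493 list. The direction of these changes with a sample left out was thus largely set by the rule. RAR sites were held by 21 regions in place of 22 with 50% of the site covered and with a score above 50.

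For the limma counts, the cut lists concern another set, 391 regions of which 34 overlapped the 775. Of these, 61 were higher in RA than DMSO (1062 of all 67438 tested), 10 higher in DMSO than NE (4508 of all) and 0 higher in DMSO than BMS493 (0 of all). At an unadjusted p under 0.05, 95 of the 391 were higher in DMSO than BMS493, against 1512 of all. Ranks of −log10(q) gave 0 for RA above DMSO (295 at an unadjusted p) and 0 for DMSO above BMS493 (100). Over all regions these counts were 32 (5574) and 0 (1330). With no filter the counts were 0 for RA above DMSO (280 at an unadjusted p), 0 for DMSO above NE (44), 34 for RA above BMS493 and 3 for DMSO above BMS493. Over all 245646 regions they were 0 (6112), 2129 (7377), 173 and 3. With 1 sample left out the counts among the BMS493-lost regions ran from 0 to 13 for RA above DMSO, 0 to 40 for DMSO above NE, 8 to 14 for DMSO below NE, 3 to 248 for RA above BMS493 and 0 to 3 for DMSO above BMS493. Over all regions tested they ran from 0 to 600, 1387 to 5334, 3125 to 7721, 5 to 1325 and 0 to 7, in that order. The cause of these changes was not tested.

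Deviations of samples with the same replicate number correlated at −0.154 to 0.206 (18 pairs, 2 above 0.1). Those with different numbers correlated at −0.201 to 0.205 (36 pairs, 4 above 0.1). No pairing by number was seen, but 3 samples per group are too few to exclude it. The numbers in the NE headers, which differ from the labels, were not tried. With the replicate block limma called 0 BMS493-lost regions higher in RA than DMSO (295 at an unadjusted p under 0.05), 0 higher and 12 lower in DMSO than NE, 75 higher in RA than BMS493 and 0 higher in DMSO than BMS493 (120). Over all regions tested these counts were 0 (5791), 2618 and 5633, 379, and 0 (1275). Depth limits what the absence of a call can show: the lists hold no value for regions below the threshold, DMSO replicate 1 had the shortest list, and RAR sites and gene names were at hand for some chromosomes and regions alone.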
